A study of Mus musculus with 12 samples.

Results

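The cytosolic ribosomal protein genes are the genes whose proteins build the large (60S) and small (40S) ribosomal subunits. They were taken by name as gene rows called Rpl or Rps with a number and at most a suffix of a, l, al, x or l1, together with the stalk genes Rplp0, Rplp1 and Rplp2 and the laminin receptor gene Rpsa. The rule found 84 of 20981 genes, and 8 of the 84 are paralogs of another member. By name alone, 52 were assigned to the large and 32 to the small subunit. The small subunit set includes Rps4l, which is annotated as a pseudogene. RNA had been sequenced from testes of 3-month-old C57BL/6 mice that all carried the Mael-/- genotype, so no group with intact Mael was compared. Mael is a germ line gene needed to keep retrotransposons silent. TOTAL was the clarified extract with 10 mM EDTA, which takes ribosomes apart. INPUT was the pool of fractions 5 to 8 of a 10 to 50% sucrose gradient of that extract. IP was the RNA recovered from INPUT with an antibody to LINE-1 (L1) ORF1p, the RNA-binding protein of the L1 retrotransposon, and BO was the RNA that stayed on beads without antibody after the same INPUT. Each group had 3 libraries, 12 in all. For expression levels, the gene tables hold the authors' mean of normalised read counts for each group and no value per library. The authors' own per-gene statistics were not used here, so the differences below carry no error or test and are descriptions of 1 mean against another.

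Ribosomal proteins are made in near equal numbers, and their mRNAs are among the most abundant short mRNAs of a growing cell. Most of these mRNAs start with a C and a run of pyrimidines, the 5' terminal oligopyrimidine (TOP) tract, through which their translation follows the supply of nutrients. Several ribosomal protein genes lie on the X chromosome, which is silenced in spermatocytes, and autosomal copies of some of them, such as Rpl10l and Rpl39l, are known for expression in the testis. The comparison of IP with the other groups asks which mRNAs were recovered with it.

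The pairs of X-linked parent and autosomal copy carry much of what follows. Their coding sequences show how far reads of a parent can be told apart from those of its copy, but not from those of other genes. Rpl10 (chrX:74270812-74273135, plus strand, 7 exons) and Rpl10l (chr12:66283379-66284401, minus strand, 1 exon) each code over 642 bases and were identical at 84.7% of them. Rpl39 (chrX:37082520-37085402, minus strand, 3 exons) and Rpl39l (chr16:10170226-10174911, plus strand, 3 exons) were identical at 85.0% of 153 coding bases. Rpl36a (chrX:134585654-134588062, plus strand, 5 exons) and Rpl36al (chr12:69182731-69184083, minus strand, 2 exons) were identical at 87.7% of 318 bases. Positions are gene extents in GENCODE M21 on GRCm38, which is mm10. The whole coding sequences of Rpl39 and Rpl39l, without the stop codon, and the first 120 coding bases of Rpl10 and Rpl10l are given below from the reference, with the bases that differ within a pair in capitals.
Rpl39: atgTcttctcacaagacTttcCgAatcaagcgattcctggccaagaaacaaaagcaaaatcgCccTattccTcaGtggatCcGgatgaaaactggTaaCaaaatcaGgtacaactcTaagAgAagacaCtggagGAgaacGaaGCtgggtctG
Rpl39l: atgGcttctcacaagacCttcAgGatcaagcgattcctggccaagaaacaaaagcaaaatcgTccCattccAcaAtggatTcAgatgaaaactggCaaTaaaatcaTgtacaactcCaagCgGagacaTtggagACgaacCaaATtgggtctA
Rpl10: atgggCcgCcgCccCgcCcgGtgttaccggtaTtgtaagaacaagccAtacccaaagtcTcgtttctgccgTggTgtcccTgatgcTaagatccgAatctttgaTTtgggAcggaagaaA
Rpl10l: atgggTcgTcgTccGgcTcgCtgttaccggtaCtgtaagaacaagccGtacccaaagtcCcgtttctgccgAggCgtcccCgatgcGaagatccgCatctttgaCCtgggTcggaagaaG

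The Rpl39 pair differed at 23 bases, and the printed stretch of the Rpl10 pair at 18. The reads were 75 bases long, and no stretch of 75 coding bases was shared within any of the 7 pairs for which both genes have a coding sequence. For the Rps4x pair (chrX:102184941-102189394, minus strand, 7 exons) the copy Rps4l (chr6:148354656-148355598, plus strand, 1 exon) has no annotated coding sequence and is listed in GENCODE as a transcribed processed pseudogene.

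Ribosomal protein genes have many processed copies elsewhere in the genome, and the tables keep reads that map to several places apart from the genes. Over the 84 members, the median share of 75-base windows found exactly in the transcript of another gene was 45.9%, and 38 members shared 50% or more. Only 4 members shared no window. Among X-linked parents the share was 91.9% for Rpl10, 84.6% for Rpl36a, 52.9% for Rps4x and 7.6% for Rpl39. Their copies had 0.3% (Rpl10l), 61.3% (Rpl36al), 6.7% (Rps4l) and 0% (Rpl39l). Autosomal Rpl7 and Rpl22 had 41.0% and 1.4%, and their paralogs Rpl7l1 and Rpl22l1 3.9% and 58.6%. The rows of a parent and its paralog can therefore miss different parts of their mRNAs. Across the 79 members kept against TOTAL, the normalised count per kb of transcript in TOTAL and the share of such windows had a Spearman's rho of 0.05, a description over genes of the same libraries. Members with 50% or more of windows shared had a median log2 ratio of IP over TOTAL of -1.81 (36 genes), and those with less had -1.65 (43 genes). Rows for multi-mapping reads amounted to 18.2% of the summed gene table in TOTAL, 7.35% in INPUT, 5.62% in BO and 5.3% in IP.

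The libraries were checked before the members were compared. Mael stood at 0.65 in TOTAL, 0.502 in BO and 0 in INPUT and IP. The germ cell genes Ddx4 and Dazl had means of 2611 and 13890 in TOTAL, and the spermatocyte gene Sycp1 of 9433, whereas the spermatid genes Tnp1 and Prm1 stood at 30.1 and 22.0. In the table of repeats, which has a value for each library, 28S-like rRNA (LSU-rRNA_Hsa) was at 2342152 normalised counts in BO replicate 3, 52.1% of that library's counts, against 69645 and 72408 in the other two BO libraries and 42477 to 109792 in IP. BO replicate 3 therefore stood apart, and it could not be left out of the BO means of genes. This rRNA also differed within TOTAL (87173 to 1045983) and within INPUT (120103 to 402007). Replicate 3 had the highest value in every group. The authors had depleted rRNA when making the libraries, so these are counts of the rRNA left after depletion.

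The member genes were lower in IP than in TOTAL, far higher in IP than in BO and close to INPUT. Counts were normalised between libraries, so these differences are in composition and give no amount of RNA recovered. Together they made up 1.4% of the summed normalised counts of all genes in TOTAL, 0.338% in INPUT, 0.342% in IP and 0.0617% in BO. In TOTAL the large subunit genes held 0.845% and the small subunit genes 0.56%. The corresponding shares in IP were 0.221% and 0.121%. For ratios, genes were kept when the mean over the 2 groups was at least 10, and the log2 ratio was taken after adding 1 to each mean. This kept 78 members against BO and 79 against INPUT and TOTAL. A gene was counted as past the threshold when the log2 ratio was above 1 or below -1.

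**Figure D1:**
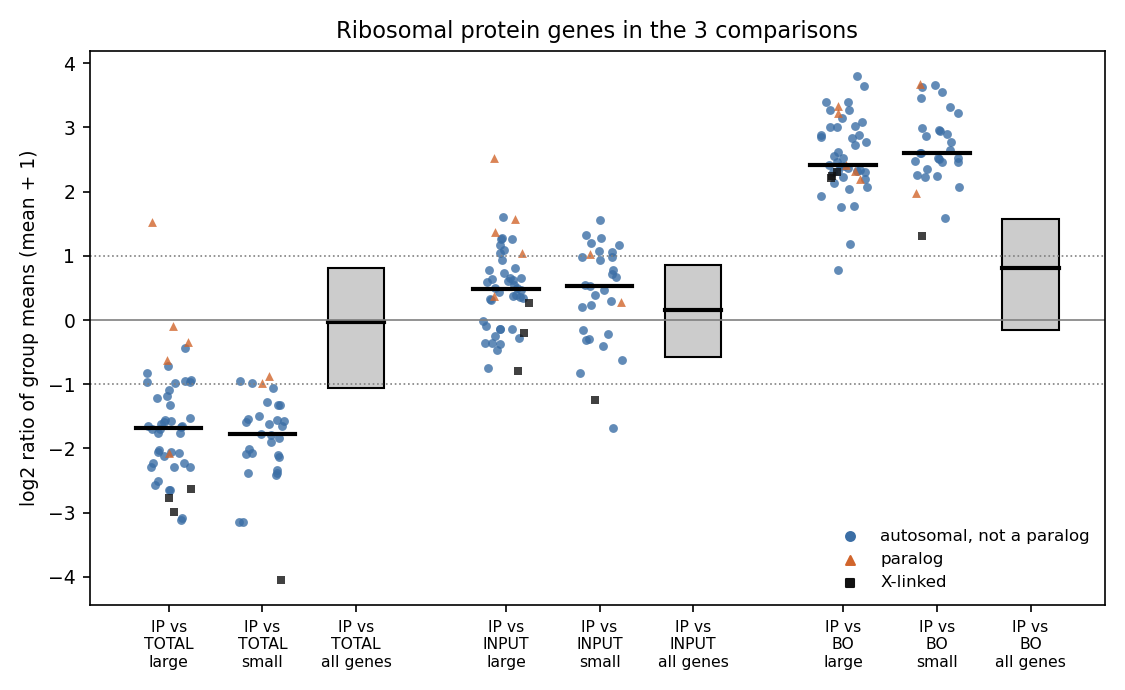
Log2 ratio of the group means (after adding 1) of each member gene in IP against TOTAL, INPUT and BO, by subunit. Points are genes, thick lines are medians, the grey boxes give the quartiles and median of all genes, and the dotted lines mark log2 ratios of 1 and -1. Members lie low against TOTAL (median -1.70), near 0 against INPUT (0.50) and high against BO (2.52), with Rpl10l uppermost and the X-linked Rps4x lowermost against TOTAL.

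Against TOTAL, the median log2 ratio of the 79 members was -1.70, between -4.05 for Rps4x and 1.52 for Rpl10l, while the median of 14666 genes was -0.03. Below -1 were 63 members, and 26.2% of all genes were. Above 1 was Rpl10l alone, and 20.4% of all genes were. Large and small subunit genes lay close together, with medians of -1.68 (48 genes) and -1.77 (31 genes). The other three lowest members were Rps16 (-3.14), Rps21 (-3.14), a small subunit protein, and Rplp2 (-3.12), an acidic protein of the stalk. After Rpl10l the highest were Rpl7l1 (-0.09), Rpl39l (-0.35) and Rpl9 (-0.43), a protein of the large subunit.

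Against INPUT, members were scattered around a median of 0.50, between -1.68 for Rps16 and 2.52 for Rpl10l, and the median of 14400 genes was 0.15. Above 1 were 19 members, where 20.5% of all genes lay. Below -1 were Rps16 and Rps4x only, and 14.6% of all genes were. Rps16 rests on an estimated 11 to 16 reads over the 3 IP libraries together, and the counting standard error of its ratio was 0.47 on the log2 scale here and 0.44 against TOTAL. With a pseudocount of 10 its ratio here was -0.90, which left Rps4x (-1.20) as the 1 member below -1. The share above 1 was thus near that of all genes. These counts follow the scaling: with the groups set to equal sums over genes, 4 members were above 1 and 7 below -1, while 9.1% and 28.0% of all genes were. Large and small subunit genes had medians of 0.48 and 0.54. Next to Rpl10l stood Rpl29 (1.61), Rpl39l (1.58) and Rps20 (1.56), and the lowest after Rps16 were Rps4x (-1.24), Rps21 (-0.82) and Rpl39 (-0.79).

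Against BO, all 78 members had the higher mean in IP, with a median of 2.52 (a 5.74-fold ratio), and so did 9804 of 13634 genes. Above 1 were 77 of them, and 43.9% of all genes were. No member was below -1, where 11.2% of all genes lay. All genes had a median of 0.81, so the members stood 1.71 above it. Rpl9 was highest, at 2530 in IP and 180.4 in BO (log2 ratio 3.80), followed by Rps27l (3.67), Rps7 (3.66) and Rpl17 (3.64). Rpl15, a large subunit protein, was lowest, at 407.6 in IP and 238 in BO (0.77), followed by Rpl22 (1.19), Rps4x (1.31) and Rps21 (1.59). Large subunit genes had a median of 2.42 and small subunit genes of 2.6. The BO means include the library with the high rRNA, whose part in these ratios was not tested.

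The step from TOTAL to INPUT was set across tables, through the IP mean that each table holds. Its median over 79 members was -2.20, and that over 14280 genes was -0.14. Below -1 were 78 members, all but Rpl10l (-0.997), whereas 17.0% of all genes were. None was above 1, where 2.3% of all genes lay. Rps26 (-3.01), Rps12 (-3.00) and Rpl23 (-2.98) had the largest deficits in INPUT, and Rpl10l, Rpl7l1 (-1.13), Rpl18 (-1.19) and Rps4l (-1.26) the smallest. From INPUT to BO, the median of 78 members was -2.21 against -0.55 for all genes, and 75 members were below -1, where 33.3% of all genes lay.

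Transcript length moved with the IP over TOTAL ratio. Member transcripts had a median length of 802 nt and 57 of 84 were 1000 nt or shorter, while the median over 18469 protein-coding genes was 2735 nt. Among the other protein-coding genes up to 1000 nt long, the median log2 ratio of IP over TOTAL was -2.02 (802 genes), and 582 of them were below -1. It was -0.81 for genes of 1000 to 2000 nt, 0.02 for genes of 2000 to 4000 nt and 0.54 for longer ones. Members up to 1000 nt had a median of -2.01 (53 genes), next to the -2.02 of other short genes, and members of 1000 to 2000 nt had -1.59 (21 genes). The 5 members over 2000 nt had a median of -1.18, below the medians of other genes of that length. All lengths here are those of the transcript chosen for each gene, and this class depends on that choice. The median lengths of the annotated transcripts of these 5 genes ran from 581 nt (Rpl22) to 1310 nt (Rpl7l1). The comparison by length was not repeated with median lengths. Over the 79 members, Spearman's rho between log2 length and the IP over TOTAL ratio was 0.38, and over 14080 protein-coding genes it was 0.43. Against INPUT rho was 0.20 over members and 0.05 over protein-coding genes, and against BO it was 0.17 and -0.39. These are correlations across genes of the same libraries, and genes are not independent replicates. The part of length in the members' ratios was not tested.

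**Figure D2:**
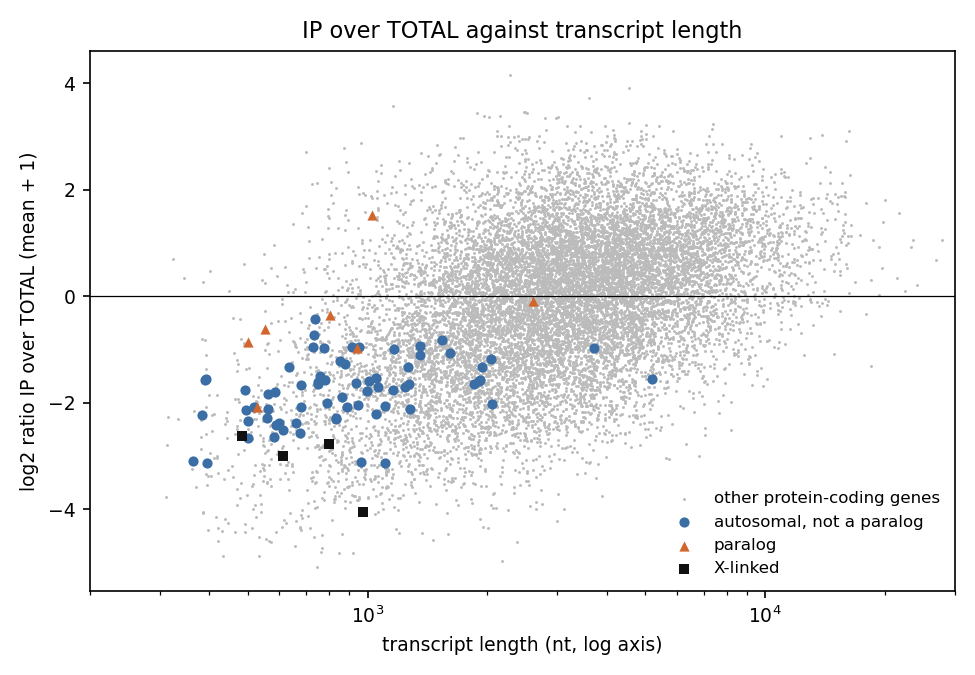
Log2 ratio of IP over TOTAL (after adding 1) against transcript length in nt on a log axis. Grey points are other protein-coding genes and coloured points are member genes. The members lie at the short and low end of the cloud, with a median length of 802 nt and a median ratio of -1.70, and Rpl10l stands above the other members at 1.52.

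In the other comparisons, short genes as a class had medians apart from those of the members. Against INPUT, other genes up to 1000 nt had a median of -0.30 and members of that length 0.44. Against BO the medians were 1.41 for other short genes and 2.48 for short members. From TOTAL to INPUT they were -1.56 and -2.27. Mitochondrial ribosomal protein genes, which encode a separate ribosome and were kept in 75 to 77 of 77 cases, had medians of -1.05 against TOTAL, 0.30 against INPUT and 1.76 against BO. Genes listed as translation factors (59 of 61 kept), which include regulators such as Eif4ebp3 and Eif2ak2, had 0.08, 0.63 and 1.74. Of the 16 further genes listed as TOP mRNAs, all were kept, with medians of -1.03, 0.70 and 2.34. That list spread from -2.48 for Eef1d to 2.00 for Pabpc1, the poly(A)-binding protein, against TOTAL. No test compared these lists with the members.

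Other ribosomal protein genes that the naming rule leaves out had similar values. Rack1 under its older symbol Gnb2l1, Fau and Rps3a1 all encode proteins of the ribosome, and their log2 ratios against TOTAL were -1.41, -2.35 and -1.56. Against BO they ranged from 2.04 to 2.86.

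Levels per length were compared among the 72 members that passed the filter and are not paralogs. Rplp1, an acidic stalk protein, had the highest level in TOTAL at 13080 normalised counts per kb, followed by Rpl32 (9312), Rps14 (8846), Rps21 (8825) and Rps29 (8023). In IP the order differed. By principal transcript length, Rpl9 led with 4469 per kb, then Rpl4 (3787) and Rplp0 (3604), and Rplp1 ranked 12 and Rps21 33. The lowest in TOTAL were Rps16 (46.1), Rpl35 (672), Rps15a (744.5), Rpl29 (795) and Rpl15 (828). With the median length of a gene's transcripts in place of the principal one, an alternative chosen after seeing the data, Rplp1 and Rps16 kept their ranks of 1 and 72 in TOTAL, but Rps15a moved from rank 70 to 16 and Rpl32 from 2 to 25. In IP, Rpl9 leads with principal lengths only. Its median length is the same 738 nt, but that of Rpl4 is 856 nt (principal 1538 nt) and that of Rplp0 854 nt (principal 1358 nt). The median level in TOTAL was 2931 per kb for 43 large subunit genes and 3732 per kb for 29 small subunit genes. In IP these medians were 754 and 1034 per kb. Across 79 members, the log2 means in TOTAL and IP had a Spearman's rho of 0.82, a description over genes of the same libraries.

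**Figure D3:**
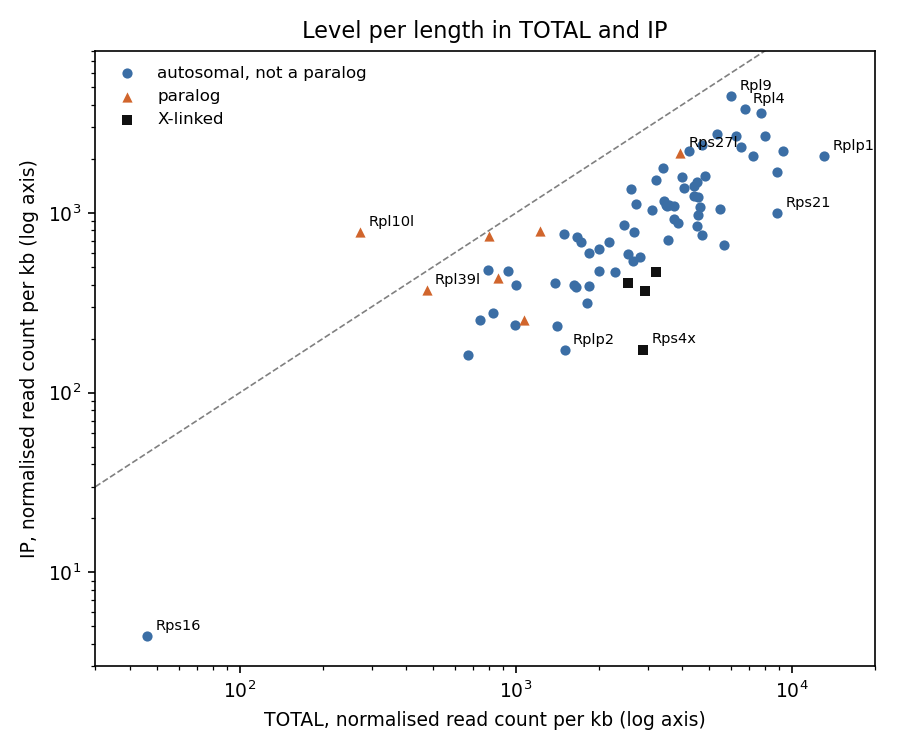
Normalised read count per kb of transcript in IP against TOTAL, both on log axes, for the 79 members that passed the filter. The dashed line marks equal levels. Lengths are those of the principal transcript where one is annotated, and the place of Rpl9 depends on them. Rpl10l lies above the line, Rplp1 is farthest right at 13080 per kb, and Rpl9 is highest in IP at 4469 per kb. Rps16 stands alone at 46.1 per kb in TOTAL and 4.42 per kb in IP.

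The X-linked members and the paralogs lay toward opposite ends of the IP over TOTAL ratios, except for Rpl36al. X holds 4 members, Rps4x, Rpl39, Rpl10 and Rpl36a, and all 4 were below -1 against TOTAL, with a median of -2.88, where 26.2% of all genes and 32.9% of all X-linked genes were below -1. The 68 autosomal members that are not paralogs had a median of -1.70, and 58 of them were below -1. For all X-linked genes the median was -0.30 (602 genes) and for all autosomal genes -0.02 (13967 genes). Of the 8 paralogs, 7 passed the filter, with a median of -0.62, and Rpl36al was the lowest of them. Against INPUT, 5 of 7 paralogs were above 1 (20.5% of all genes were) and the median was 1.04, while the X-linked members had a median of -0.50. With groups scaled to equal sums, 2 of 7 paralogs were above 1, and 9.1% of all genes were. When centred on the median gene, 3 of 7 were, and 16.5% of all genes. Rps4l (0.28) and Rpl36al (0.37) lay below the median of the members. Against BO the medians were 2.42 for paralogs, 2.22 for X-linked members and 2.55 for the other members.

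Rpl10l, a single-exon copy of the large subunit gene Rpl10, had means of 278.7 in TOTAL, 139.8 in INPUT, 65.2 in BO and 803.9 in IP. Among the 79 members that passed the filter, it was the 1 with a higher mean in IP than in TOTAL, by 2.88-fold, and stood 5.74-fold above INPUT. In the table normalised with BO its IP mean was 616.3, 9.33-fold above BO. Rpl10 had means of 2577 in TOTAL, 438 in INPUT, 61.7 in BO and 377 in IP, and was thus 6.82-fold lower in IP than in TOTAL. Rpl10l made up 7.79% of the pair's level per length in TOTAL, 20.0% in INPUT, 45.2% in BO and 62.5% in IP. The share was thus higher in BO and in IP than in TOTAL and INPUT, and the IP over BO ratio of Rpl10l exceeded that of Rpl10 by 1.01 on the log2 scale. These are shares of gene rows, which leave out multi-mapping reads. Windows shared with other genes make up 91.9% of Rpl10 and 0.3% of Rpl10l. Multi-mapping rows amounted to 18.2% of the summed gene table in TOTAL and 5.3% in IP. Their part in the pair's shares was not tested.

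For Rps4x, whose protein lies in the small subunit, the means were 2828 in TOTAL, 404 in INPUT, 51.7 in BO and 169.4 in IP. That was 16.6-fold lower in IP than in TOTAL. Rps4l had means of 809.7, 337.5, 78.9 and 410.1 in the same order of groups, 1.97-fold lower in IP than in TOTAL. The copy held 22.8% of the pair's level per length in TOTAL, 46.3% in INPUT, 61.2% in BO and 71.5% in IP. Windows shared with other genes make up 52.9% of Rps4x and 6.7% of Rps4l, and their part in these shares was not tested.

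Rpl39 lines the exit tunnel for the new peptide chain. Its means were 1794 in TOTAL, 393 in INPUT, 34.0 in BO and 224 in IP, a 7.97-fold lower level in IP than in TOTAL. Rpl39l, with means of 382.5, 100.5, 45.2 and 300.1, was 1.27-fold lower in IP than in TOTAL. Its share of the pair was 14.0% in TOTAL, 16.3% in INPUT, 50.3% in BO and 50.4% in IP. The shares in BO and IP were nearly the same, and the log2 IP over BO ratios of Rpl39 and Rpl39l differed by 0.01.

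Rpl36al differed least from its X-linked parent among these copies. Rpl36a had means of 1232 in TOTAL and 198.2 in IP (log2 ratio -2.63), and Rpl36al of 563.9 and 132.7 (-2.08). The copy held 29.6% of the pair in TOTAL and 38.1% in IP. Windows shared with other genes make up 84.6% of Rpl36a and 61.3% of Rpl36al, and 63.1% of the exon bases of Rpl36al lie in another gene on the same strand. Reads from these parts may be missing from the rows, which was not tested. Among autosomal parents, Rpl22 went from 3326 in TOTAL to 815.6 in IP (-2.03) and its relative Rpl22l1 from 675.6 to 440.3 (-0.62). Rpl7 had 5504 in TOTAL and 2772 in IP (-0.99), and Rpl7l1 had 2075 and 1951 (-0.09). In all 6 pairs in which both genes passed the filter, the paralog had the higher IP over TOTAL ratio, by 0.55 to 4.29 on the log2 scale. In the other comparisons the order was not the same for each pair. The log2 ratio of Rpl7l1 minus that of Rpl7 was -0.05 against INPUT and -0.99 against BO, and that of Rpl36al minus Rpl36a was 0.10 and -0.05. For Rpl22l1 minus Rpl22 it was 1.38 and 2.15. The 7 paralog and 4 X-linked values come from group means, and their spread between replicates was not analysed here.

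**Figure D4:**
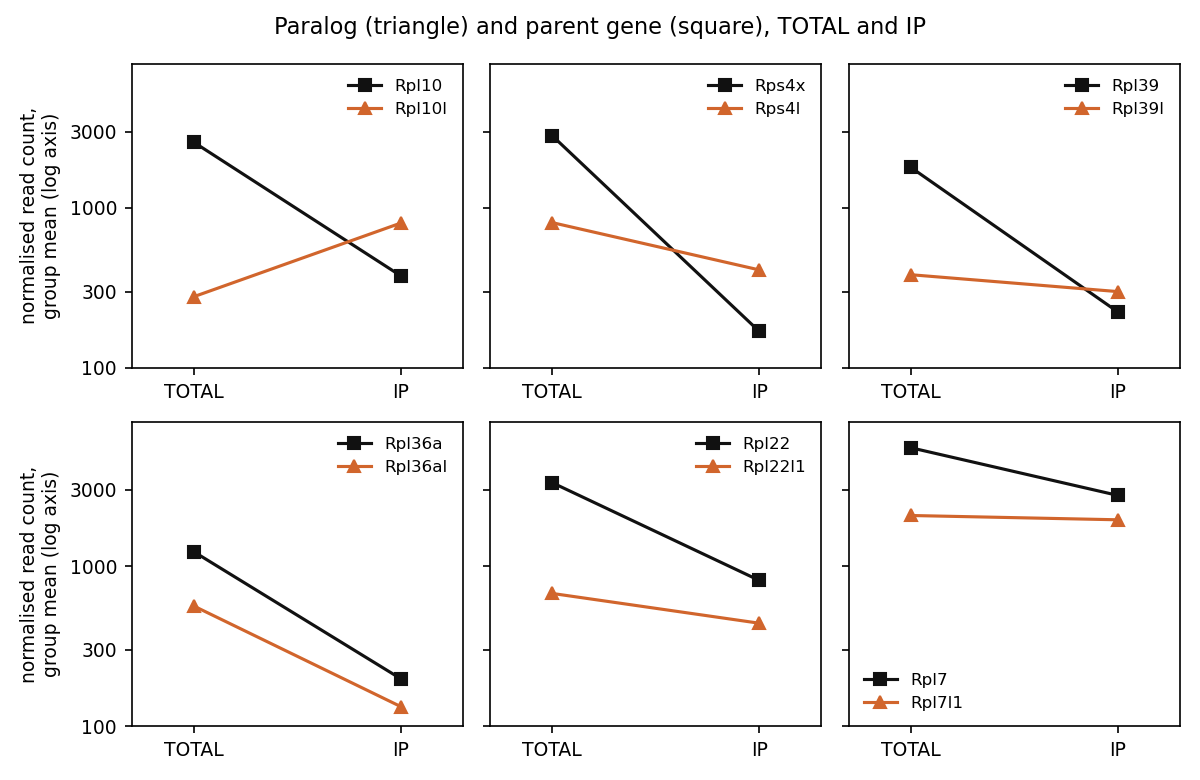
Group means of normalised read counts in TOTAL and IP, on a log axis, for 6 pairs of a parent gene (black squares) and its paralog (orange triangles). Lines join the 2 means of a gene and have no error bars, since no value per library was used. Rpl10l is above its own TOTAL level in IP, and the lines cross for the Rpl10, Rps4x and Rpl39 pairs. Reads that map to several places are not in these means.

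Markers of cell types moved with the same groups. Summed over 5 genes each, spermatocyte markers stood at 19730 in TOTAL and 127600 in IP, and 5 of 5 were higher in IP. The summed Leydig cell markers were at 77570 in TOTAL and 15230 in IP, and Sertoli cell markers at 73130 and 23540, with 0 of 5 higher in IP in either list. Spermatogonia markers stood at 5251 and 2985, also with 0 of 5 higher, and peritubular, vessel and macrophage markers at 6894 and 3836, with 2 of 4 higher. The germ cell genes Ddx4 and Dazl together were at 16500 and 69710. In BO, Leydig markers were at 5666 and spermatocyte markers at 7968, below the 11640 and 97900 of IP normalised with BO. Peritubular, vessel and macrophage markers (1506 and 2937) and the germ cell genes (9375 and 53440) were also lower in BO than in IP. The sums of Sertoli cell markers (22880 and 18010) and spermatogonia markers (5529 and 2283) were higher in BO. Single genes were divided, with 2 of 5 Sertoli cell markers and 3 of 5 spermatogonia markers higher in IP. Clu (17180 in BO) made up most of the former sum in BO and Kit (4494) most of the latter. Round spermatid markers were near the floor, with a sum of 84.8 in TOTAL and 10.3 in IP. The part of cell type in the members' ratios was not tested.

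By role in the ribosome, the stalk genes spread widely. Rplp0, the base of the stalk, had means of 10454 in TOTAL and 4895 in IP (log2 ratio -1.10). The acidic proteins Rplp1 (6529 and 1036, -2.65) and Rplp2 (1449 and 165.7, -3.12), which bind to it in pairs, lay lower, and Rpl12 was at -1.70. Lengths were 1358 nt for Rplp0, 499 nt for Rplp1, 964 nt for Rplp2 and 1242 nt for Rpl12. Along the exit tunnel, Rpl4 (10363 and 5825, -0.83) and Rpl17 (4148 and 2121, -0.97) lay above Rpl39 (-3.00). Of the proteins that bind 5S rRNA, Rpl5 was at -1.18 and Rpl11 at -2.30.

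In the small subunit, Rps2 and Rps3, near the channel where mRNA enters, were at -1.77 and -1.59, and Rps26 and Rps28, near its exit, at -2.08 and -1.55. Against INPUT these pairs lay apart, with -0.21 and -0.15 for the entry pair and 0.94 and 1.06 for the exit pair. From TOTAL to INPUT the entry pair was at -1.56 and -1.44 and the exit pair at -3.01 and -2.61. Lengths were 998 and 1908 nt for Rps2 and Rps3, and 681 and 392 nt for Rps26 and Rps28. No test compared these pairs, and the part of role or length was not tested. Rps6, a target of growth signalling kinases, had means of 2392 in TOTAL and 986.6 in IP (-1.28), and Rpsa 3346 and 1336 (-1.32). Rps23 and Rps15, close to the decoding centre, were at -1.62 and -2.33. Rps27a, made as a fusion with ubiquitin, was at -2.01.

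For 5 members the gene rows held almost no reads in every group. Rpl26 stood at 0.418 in TOTAL and 0 in the other groups. Rpl30 had means of 5.01 in TOTAL and 7.17 in IP, Rps27 of 7.32 and 1.86, Rpl34 of 9.75 and 5.31, and Rpl3l, a paralog known from striated muscle, of 11.7 and 7.47. Rps16, with 51.1 in TOTAL and 4.91 in IP, was the next lowest and passed the filter only against TOTAL and INPUT. Shared windows made up 98.5% of Rps27, 65.1% of Rpl30, 41.4% of Rpl34, 35.5% of Rpl26, 35.5% of Rps16 and 0% of Rpl3l. Whether these 6 rows hold all reads of their mRNAs was not tested, and no ratio is read from the 5 lowest. Rps27l, the paralog of Rps27, had means of 1966 in TOTAL and 1079 in IP (-0.87), with 12% of windows shared.

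RefSeq promoter entries on GRCm38.p6 were found for 63 of 84 members. A TOP-like start was sought as C followed by at least 4 pyrimidines (C or T) on the coding strand at the annotated start. It was present in 12 of 63 members, 19.0% (exact 95% binomial interval 10.2 to 30.9%), and in 2.49% of all 27025 entries. When the C could lie up to 5 bases to either side, 28 of 63 (44.4%) and 18.4% of all entries had one. The windows below run from 10 bases before the start through the first 20 transcribed bases, with the pyrimidine run in capitals where it was found within 5 bases of the start. They show 3 members with the run at the annotated start and the highest and lowest members against TOTAL, Rpl10l and Rps4x, without one within 5 bases of it.
Rps6: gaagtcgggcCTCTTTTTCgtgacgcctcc
Rpl35: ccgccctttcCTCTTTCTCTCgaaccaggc
Rplp2: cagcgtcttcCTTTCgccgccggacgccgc
Rpl10l: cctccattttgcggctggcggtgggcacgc
Rps4x: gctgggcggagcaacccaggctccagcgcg

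They lie at chr4:86857348-86857377 (minus strand), chr2:39005112-39005141 (minus), chr7:141447641-141447670 (plus), chr12:66284382-66284411 (minus) and chrX:102189372-102189401 (minus). Members with a run within 5 bases had a median IP over TOTAL of -1.68 (26 genes), those without one -1.76 (33 genes), and those with no entry -1.62 (20 genes). The 3 medians lay close together beside the range of the members. Since annotated starts can be off by several bases, no match says only that the run does not begin within 5 bases of the annotated start. The Rpl10l window opens with such letters, outside the bases searched.

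Some members host small nucleolar RNA genes in their introns. The 28 kept members with such a gene inside had a median IP over TOTAL of -1.73, and the 51 without one -1.65. Against BO the medians were 2.52 in both. Members with under 50% of shared windows had medians of -1.65 against TOTAL, 0.51 against INPUT and 2.53 against BO, near those of all members.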

How the data were processed

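Samples were grouped by their labels into TOTAL, INPUT, BO and IP. Per the labels, the authors used mm10 and STAR 2.6.0c for mapping and normalised counts with DESeq2 1.24.0 over genes and repeat loci. The gene counter and annotation are not given in the sources used here. The deposited signal is the mean of the normalised counts over the 3 libraries of a group, in 3 tables normalised separately. The tables also hold the authors' log2 fold changes, standard errors, statistics and p-values, which were not used. For repeats, the deposited signal is a normalised count per library and subfamily.

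Rows that name no gene (unmapped, multi-mapping, no feature, ambiguous) amounted to 22.1 to 38.6% of the summed gene table and were left out. IP means printed with TOTAL, INPUT and BO means are those of the TOTAL table; beside an IP over BO ratio they are those of the BO table. Ratios are log2((mean + 1)/(mean + 1)) for genes whose mean over both groups was at least 10. INPUT against TOTAL is the IP over TOTAL ratio minus the IP over INPUT ratio, and BO against INPUT was obtained likewise. Low means were sums of whole multiples of 3 steps per column (100% of values below 1, tolerance 0.003), 1 read of a library being worth 0.209 to 0.502. Members with a TOTAL mean of at least 100 (78 genes) thus rest on at least 854 reads in TOTAL, 305 in INPUT, 308 in IP and 30 in BO, and the largest counting standard error of a log2 ratio was 0.27 against BO, 0.11 against INPUT and 0.089 against TOTAL. These cover counting error only.

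Lengths, windows and sequences come from GENCODE M21 (20721 of 20981 gene names matched, all 84 members among them), and promoters from RefSeq. The shortest APPRIS principal transcript linked to RefSeq was used. Where a gene had none, the longest APPRIS principal, protein-coding or other transcript was taken, in that order. Named genes are the 4 highest and 4 lowest members per comparison, the 5 highest and 5 lowest per length in TOTAL, the paralogs with their parents and the role groups. The members and lists were chosen with earlier results of these data known. Only the ratio of group means was tested on simulated data, with no spread between replicates beyond depth and counting error. The other steps were not tested in this way. Alternatives were other scalings, pseudocounts of 0.1 and 10, no filter or a mean of at least 100, and fewer members. Python 3, numpy, pandas and scipy were used.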

Additional observations from a re-analysis of the deposited data

How the results depend on the processing

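The gene tables give group means and no value per library, so leaving out single libraries was not possible, and the authors' own statistics were not used. No paired analysis was possible because the results come from no test and the gene columns carry no replicate numbers. The direction of the members' median held against BO and TOTAL under all settings run. Against BO the median of 2.52 became 1.71 when centred on the median gene, 2.23 with groups scaled to equal sums, 1.90 with the upper quartile and 2.41 with a pseudocount of 10. Against TOTAL the -1.70 became -2.22 with equal sums, -1.83 with the upper quartile and -2.01 for members up to 1000 nt, an alternative chosen after seeing the data. Without paralogs 0 members were above 1 against TOTAL, where 20.4% of all genes lay. Against INPUT the 0.50 became 0.35 when centred, -0.036 with equal sums and 0.15 with the upper quartile, so its sign depends on the scaling. There, members above 1 numbered 4 and below -1 numbered 7 with equal sums, where 9.1% and 28.0% of all genes lay. With the upper quartile they numbered 5 and 5, where 12.1% and 22.7% of all genes lay. With a pseudocount of 10 or a mean of at least 100, Rps16 was lost and 1 member, Rps4x, was below -1. Of all genes, 11.8% and 11.0% were below -1 under these 2 settings. Relative to the median of all genes, the members stood at 1.71 against BO, 0.34 against INPUT and -1.67 against TOTAL. Large minus small subunit medians were -0.18, -0.05 and 0.09 against BO, INPUT and TOTAL, and against BO -0.079 with a mean of at least 100. INPUT against TOTAL, -2.20, became -2.06 when centred. BO against INPUT, -2.21, became -2.599 as a direct ratio of 2 tables, -1.66 when centred and -2.45 with equal sums. TOP-like starts went from 19.0% to 44.4% within 5 bases. Another 87 values of these results under alternatives moved by 0.1 or less on the log2 scale, by up to 1.5 times for counts, or within the interval of the TOP share. For named genes under other scalings and pseudocounts, 368 values moved by over 0.1 and 272 did not, and no ratio past the threshold changed sign. Depth limits the BO values, but it was not compared with their other limits.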
